A study of Homo sapiens with 8 samples.

Results

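The regions described here are TEAD4 regions from the top of the list of DMSO-treated cells that were called again after SB431542. They are the rows among the first 1000 of the TEAD4 list of DMSO cells that overlapped any TEAD4 region of SB431542 cells by at least 1 bp. There were 688 such regions, 0.238% of the 289380 regions of that list. The 312 other rows among the first 1000 serve below as their closest comparison.

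The cells were of WA09, a widely used line of human embryonic stem cells, and were kept on Matrigel in MEF-conditioned medium (DMEM/F12 with 20% KO serum). Cells of the 2 groups compared received the solvent DMSO or 10 µM SB431542, in both cases for 4 h, and chromatin was fixed, sheared and precipitated with a TEAD4 antibody. A SMAD2 precipitate of the DMSO cells was used as a further readout, and none of the groups carries a genetic change that the labels name. Each group was 1 library, so no value has a replicate error, no p-value is given, and every interval covers counting error over regions only.

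TEAD4 is a DNA-binding protein of the TEA domain family. It has little activating function of its own and works by recruiting the co-activators YAP and TAZ, which the Hippo kinase cascade holds in the cytoplasm when it is active. SMAD2 carries signals of activin, Nodal and TGF-β to the nucleus after phosphorylation by type I receptors, and SB431542 blocks the receptors ALK4, ALK5 and ALK7. Human embryonic stem cells depend on activin or Nodal signalling to stay pluripotent. TEAD4 itself needs no receptor signal to bind DNA, so its sites can be mapped with and without the inhibitor.

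The deposited lists give a chromosome, a start and an end for each region and no height, score or read count. The place in the list (the row) is therefore the available stand-in for strength. It was read as strongest first because width falls broadly along each list, but no header states it. The fall is not steady in the SB431542 list: partners measured 150 bp at row 18624 and 376 bp at row 19038. Early and late SB431542 rows are therefore places in that list and not a measured order of strength. Part of the DMSO list runs in order of position, so rows close together need not differ in strength. The TEAD4 list of SB431542 cells held 262109 regions and the SMAD2 list 420548. All 688 DMSO starts lay on a 50 bp grid, against 8 of the 688 partners (1.16%), so the lists were made in different ways. Treatment and way of making the list cannot be told apart in any value that sets them side by side. Positions are in hg19, and since no genome or annotation of that build was used, regions are given by position and not by gene or sequence.

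The share of rows called again was highest at the top of the DMSO list and fell along it. The choice of members used the same rows and overlaps, so this is given as a description. Of the first 1000 rows 68.8% were called again (95% Wilson interval 65.9 to 71.6%), beside 5.69% of the whole list. Per 100 rows the number was 100, 98, 90, 78 and 79 in the first 500 rows, and 62, 54, 46, 44 and 37 in the later 500. The fall was therefore gradual, with no step at which recall ended. The earliest row that found no SB431542 match, 112, covered 33756151 to 33756599 on chromosome 7, and the latest, 998, covered 191619551 to 191619749 on chromosome 2.

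**Figure D1:**
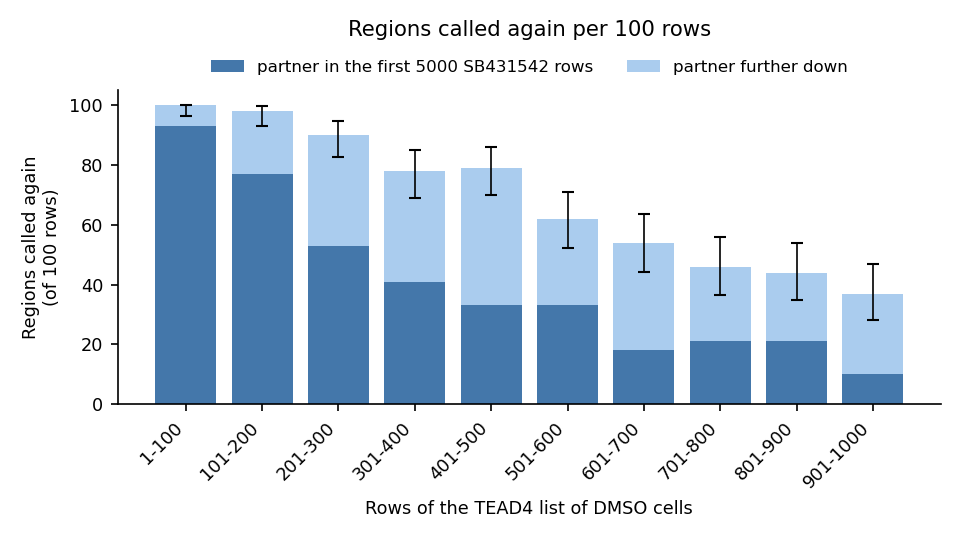
Number of TEAD4 regions of DMSO cells called again under SB431542 in each 100 rows (y axis, regions) along the first 1000 rows (x axis); bars are split by whether the partner lay in the first 5000 SB431542 rows, and error bars are 95% Wilson intervals. The total falls from 100 to 37, and the part with an early partner from 93 to 10.

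The row limit of 1000 fell within this slope. The region just inside it, row 1000, lay on chromosome 19 at 49132951 to 49133699 and had a partner of 131 bp far down the SB431542 list, at row 145492. Row 999, on chromosome 2 at 127965651 to 127966299, had its partner at row 1373. The next region outside, row 1001, lay on chromosome 19 at 13262401 to 13262649 with a partner at row 2339. Early and late partners thus stood side by side at the limit. Rows 962 to 1001 ran in falling order of chromosome name (sorted as text, from X to 19) and of start. Within this stretch the limit therefore followed position and not a measure of strength.

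The first rows of the DMSO list were also high in the SB431542 list. Row 1 was a region of 449 bp on chromosome 4 at 113573351 to 113573799, and its partner at 113573387 to 113573751 was row 460. Row 2, of 599 bp on chromosome 19 at 2462901 to 2463499, matched row 435 at 2463009 to 2463439. Row 3, of 449 bp on chromosome 1 at 203954151 to 203954599, matched row 330 at 203954245 to 203954569. In all 3 the SB431542 region lay inside the DMSO region, with midpoints 6, 24 and 32 bp apart.

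In rows 4 to 10 the partner lay inside the DMSO region as well, except for rows 4 and 6, whose partners reached past its right end. Row 4, on chromosome 1 at 205270251 to 205270949, was 699 bp wide and its partner (row 368) had a midpoint 162 bp to the right. Row 9, on chromosome 14 at 96414351 to 96415299, was 949 bp wide and its partner (row 413) covered the right part only, with a midpoint 241.5 bp to the right. The partners of rows 5, 6, 7, 8 and 10 were rows 670, 331, 412, 389 and 350. These lay on chromosome 8 at 130527801 to 130528249, chromosome 2 at 214052901 to 214053299, chromosome 3 at 101561351 to 101561799, chromosome 5 at 153339101 to 153339599 and chromosome 3 at 134093151 to 134093599. All of the first 10 members thus had partners between rows 330 and 670.

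Ranked by the sum of both rows, the leading region was row 19 of the DMSO list, on chromosome 4 at 91649051 to 91649549. Its partner, row 304 at 91649137 to 91649446, was the earliest of any member. Row 3 came next with a sum of 333, followed by row 11 on chromosome 12 at 120666701 to 120667149 with a sum of 334. The 10 smallest sums also took in rows 6, 10, 29, 4, 8, 12 and 7. Of these, row 29 covered 35234501 to 35235249 on chromosome 8 with a sum of 363, and row 12 covered 132272401 to 132273099 on chromosome 6 with a sum of 410. No SB431542 region above row 304 overlapped any of the first 1000 DMSO rows.

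Further down, the partners spread over the whole SB431542 list. The median partner row was 712.5 in the first 100 DMSO rows (interquartile range 541.75 to 1082.25), 1419.5 in rows 101 to 200 and 32897 in rows 901 to 1000. Over all members it was 2884, with a range of 304 to 259704. Partners in the first 1000 SB431542 rows numbered 165 (24.0%), in the first 5000 rows 400 (58.1%), and past row 5000 288. Of the latter, 47 were in the last 50% of the SB431542 list. Spearman's rho between the rows was 0.49 over the 688 members, a description over regions that share both libraries and the rule.

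**Figure D2:**
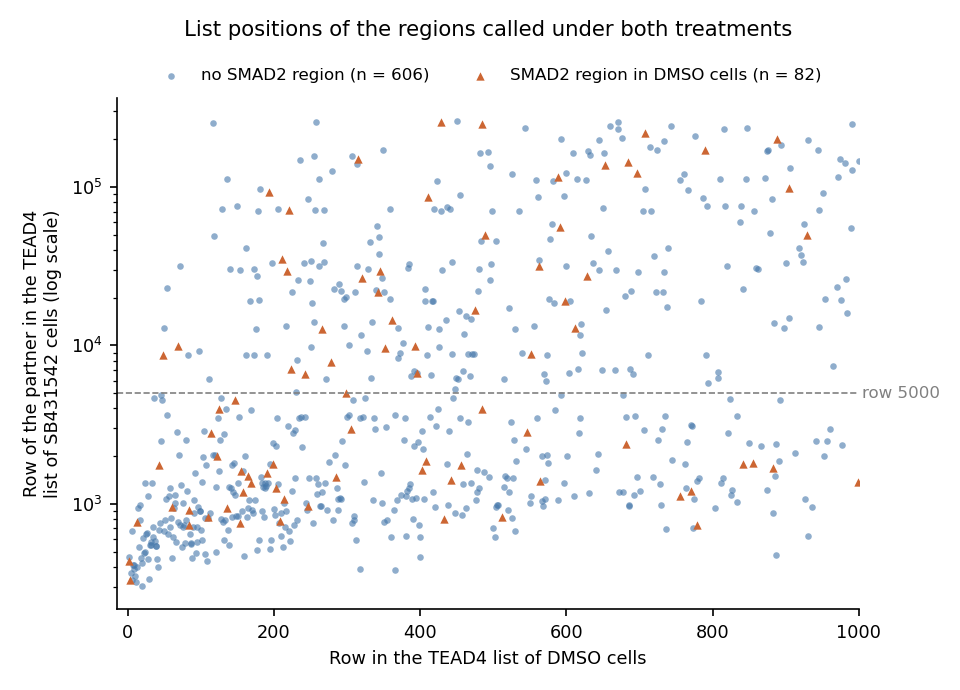
Row in the TEAD4 list of DMSO cells (x axis) against row of the partner in the TEAD4 list of SB431542 cells (y axis, log scale) for the 688 members; triangles mark the 82 that overlapped a SMAD2 region of DMSO cells, and the dashed line is row 5000. Points at the left crowd below row 2000, and those at the right run up to row 259704.

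Even among the first 100 DMSO rows, 7 members had a partner past row 5000. These were named after their values were seen. The latest partner among them, row 31510, belonged to row 72 on chromosome 11 at 10373501 to 10374149 and was 198 bp wide. Row 54, on chromosome 8 at 119089251 to 119089599, held a pair of SB431542 regions, the earlier at row 22930. The others covered 33202401 to 33202799 on chromosome 1 (row 49, partner row 12893) and 60544701 to 60545149 on chromosome 18 (row 68, partner row 9849). Next came 85199201 to 85199549 on chromosome 12 (row 97, partner row 9259), 180414901 to 180415299 on chromosome 2 (row 82, partner row 8710) and 22627951 to 22628599 on chromosome 18 (row 48, partner row 8656). The remaining 93 of the first 100 had partners in the first 5000 rows. Of the late partners, those at rows 8656, 8710 and 12893 were 338, 287 and 279 bp wide. The others measured 153 to 210 bp, beside a median of 249 bp over all partners. A late row thus did not always go with a narrow region.

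Regions were called wider in the DMSO list than in the SB431542 list at the same places. In DMSO the members were 399 bp wide at the median (quartiles 349 and 499 bp), and their partners 249 bp (198 and 304 bp). The DMSO region was the wider in 649 of 688 pairs and the narrower in 38, with a median ratio of 1.62. The widest member measured 1049 bp, on chromosome 17 at 36606901 to 36607949 (row 238), with a partner of 386 bp. The narrowest measured 199 bp, a width that 5 members shared. Their partners were narrower in 3 and wider in 2, among them row 833 on chromosome 7 at 101045501 to 101045699 with a partner of 259 bp. The 312 rows not called again had a median width of 349 bp and the whole list one of 199 bp. Width goes with row in both lists (Spearman's rho -0.32 between DMSO row and width, -0.80 between SB431542 row and width, over the members), so these values are not separate from the ranking.

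The partners lay close to the centres of the members. The SB431542 midpoint was a median of 38.5 bp from the DMSO midpoint (interquartile range 19.4 to 71.1 bp), which is less than the 50 bp step of the DMSO grid. It was within 50 bp in 414 members (60.2%). The SB431542 region lay wholly inside the DMSO region in 513 (74.6%), and the reverse held in 5. There was no side to the shift: 345 partners were centred to the right and 340 to the left, with a median of 0.5 bp. Overlap of the pairs ran from 17 to 585 bp, with 6 members under 50 bp. In sum, SB431542 regions covered 57.6% of the 294712 bases of the members.

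The match of centres was closer than further down the DMSO list. Among the 793 regions of rows 1001 to 5000 that were called again, the median distance was 66.5 bp and 39.3% were within 50 bp. Among the 13436 past row 20000 it was 79.5 bp with 32.9% within 50 bp, although those regions were narrower (median 199 bp) and had less room for a shift. Within the members, partners in the first 5000 SB431542 rows were nearer (median 31.75 bp, 67.8% within 50 bp, n = 400) than later partners (50.75 bp, 49.7%, n = 288). The early partners were also wider, with a median of 287.5 bp against 195 bp. All of these values come from the pairs that the rule selected and are given without a test.

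**Figure D3:**
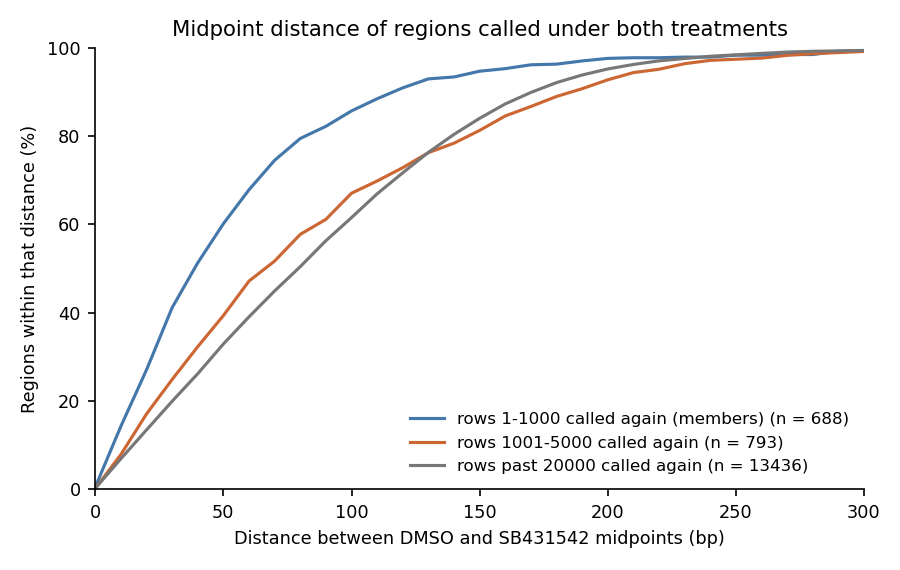
Cumulative share of regions (y axis, %) whose DMSO and SB431542 midpoints lay within a given distance (x axis, bp), for members and for called-again regions further down the DMSO list. At 50 bp the members reach 60.2%, rows 1001 to 5000 39.3% and rows past 20000 32.9%.

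In 35 members the single DMSO region overlapped a pair of SB431542 regions, and 653 overlapped 1. An overlap of 1 bp was enough to count. Row 503, for example, starts at the last base (14413551) of the first SB431542 region of its pair. The members with a pair were wider (median 499 bp, 299 to 849 bp). The SB431542 regions that met them were 1 to 239 bp apart, with a median gap of 33 bp. An example is row 21, on chromosome 12 at 79940951 to 79941399, which met SB431542 rows 610 (79941045 to 79941354) and 63254 (79941362 to 79941506), 7 bp apart. The latter reached past the right end of the member. Row 77, a region of chromosome 11 at 56427151 to 56427649, met rows 738 and 54752, likewise 7 bp apart. Here too the latter reached past the right end, to 56427724. In none of the 35 were both SB431542 regions in the first 5000 rows. No SB431542 region was shared between a member and another DMSO region.

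SMAD2 in DMSO cells was a readout that the choice of rows did not use. SMAD2 regions overlapped 82 of the 688 members, 11.9% (9.71 to 14.6%), beside 7.67% of all TEAD4 regions of DMSO cells. Of the 312 rows not called again 38 overlapped SMAD2, 12.2% (9.00 to 16.3%). The difference of -0.26 percentage points had a 95% Newcombe interval of -4.92 to 3.87, so a difference between regions called again and not was not detectable with these numbers. The interval leaves room for a difference of several points in both directions. With members defined by an overlap of 50% of both regions, the difference became -4.23 points (-8.19 to -0.17), and in the first 2000 rows it turned to 0.92 points (-1.88 to 3.73). The rule of 50% leaves out DMSO regions much wider than their partner. SMAD2 overlapped 15.7% of members of 449 to 499 bp and 20.5% of wider ones, against 10.4% at 199 to 299 bp and 6.97% at 349 to 399 bp. The part of width in the -4.23 points was not tested.

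Against the rest of the TEAD4 list, SMAD2 overlap was higher in the members as called, and the difference was not detectable in windows of equal size. The difference from the 288692 other TEAD4 regions was 4.26 points (2.05 to 6.90) for regions as called. When a window of 200 bp around each TEAD4 midpoint was used in place of the called region, 60 members (8.72%) and 7.76% of the others met a SMAD2 region, a difference of 0.97 points (-0.92 to 3.31). The members are wider than the list as a whole, and SMAD2 overlap varied with width. Among members of 349 to 399 bp it was 6.97% (20 of 287), against 12.4% of other regions of these widths, a difference of -5.45 points (-7.92 to -1.86). Among members of 549 bp or more it was 20.5% (24 of 117) against 18.8%, a difference of 1.76 points (-4.82 to 10.1). In the other 2 of the 4 width classes the interval of the difference also included 0. Compared with the 793 regions of rows 1001 to 5000 that were called again, SMAD2 overlap of the members was 11.9% against 14.0% for regions as called, a difference of -2.08 points (-5.48 to 1.38). In 200 bp windows it was 8.72% against 12.1%, a difference of -3.39 points (-6.48 to -0.24).

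Around the members, the SMAD2 share was highest in the central window. The 200 bp window at the TEAD4 midpoint met a SMAD2 region in 8.72% of members (6.84 to 11.1%). The 18 windows placed every 500 bp from 1 to 5 kb on both sides did so in 5.01% on average, with a range of 3.20 to 7.27%. The centre was thus 1.74-fold the flanks. The corresponding values were 9.62% and 5.25% for the rows not called again, and 7.76% and 5.29% for the whole list, a ratio of 1.47. The differences between these ratios were not tested.

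**Figure D4:**
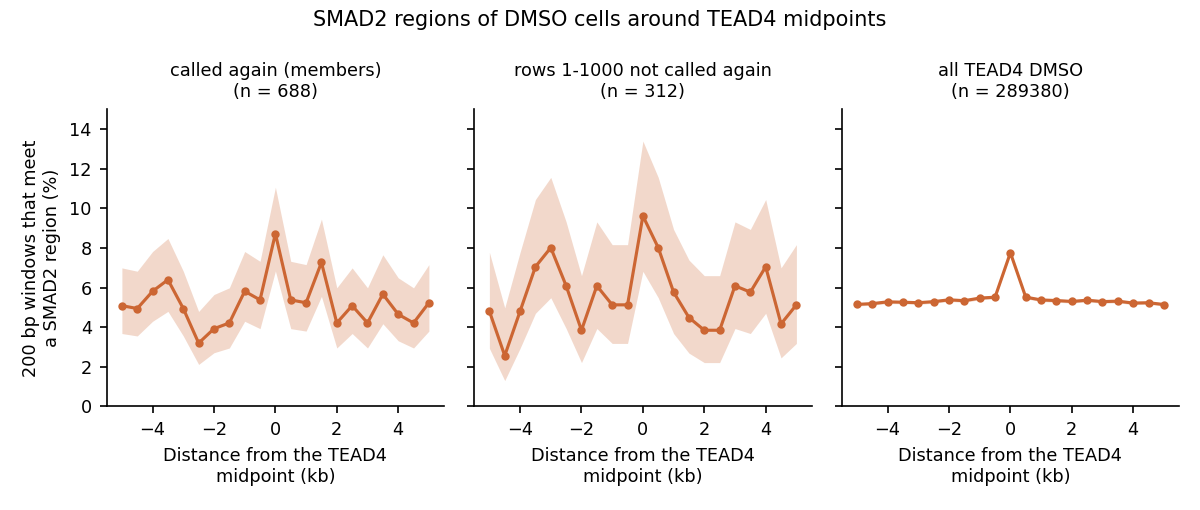
Share of 200 bp windows that met a SMAD2 region of DMSO cells (y axis, %) by distance from the TEAD4 midpoint (x axis, kb), for the members, the rows not called again and all TEAD4 regions of DMSO cells; shading is the 95% Wilson interval. The central window reaches 8.72% in the members and 7.76% in the whole list.

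The SMAD2 regions at members came from all parts of the SMAD2 list. Their median row was 170466 of 420548 (interquartile range 85000.5 to 275387), 9 were in the first 10% of the list and 1 was in the first 5000 rows. That region, SMAD2 row 4412 at 127965851 to 127966149, lay on chromosome 2 in the member of row 999 and met its SB431542 partner as well. The next was SMAD2 row 15904 at 109673451 to 109673649 on chromosome 10, in the member of row 564 (109673301 to 109673699). It was followed by row 18672 at 154945501 to 154945749 on chromosome 1, in the member of row 342 (154945051 to 154945749). The last of these ended together with the TEAD4 region, 225 bp right of its centre, and did not reach the SB431542 partner.

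Those 9 made up 11.0% of the SMAD2 regions at members, and the 1 in the first 5000 rows 1.22%, beside 1.19% of the whole SMAD2 list. Among the first 10 members, row 2 overlapped SMAD2 row 416277 and row 3 overlapped SMAD2 row 84741, and the other 8 overlapped none. Other members with an early SMAD2 region were row 83 on chromosome 7 at 100937451 to 100937749, whose SMAD2 region (row 40147) had the same midpoint as the TEAD4 region, and row 68 on chromosome 18 (SMAD2 row 41216). Over the 82 members the SMAD2 midpoint lay a median of 100 bp from that of TEAD4 (50 to 175 bp). The SMAD2 region was inside the DMSO TEAD4 region in 56 and also touched the SB431542 partner in 62. The remaining 20 missed that partner, and 1 of them met the other SB431542 region of its member.

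The places of members with and without SMAD2 in the TEAD4 lists are given as a description. The median DMSO row was 348.5 with SMAD2 and 379.5 without, and the median partner row 3973.5 and 2815.5. The median width was 449 bp with and 399 bp without. SMAD2 overlapped 11.0% of members with a partner in the first 5000 SB431542 rows and 13.2% of those with a later one, a difference of -2.19 points (-7.36 to 2.67). Per 100 DMSO rows the share lay between 8.11% and 14.4%, with intervals that overlapped throughout.

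Most members stood alone along the chromosomes, but some lay in groups. Of the 688, 53 (7.70%, 5.94 to 9.94%) had another member within 50 kb, in 22 pairs and 3 groups of 3. Counted against the same set, the first 1000 rows, a neighbour within 50 kb was found for 61 members (8.87%) and for 15 of the 312 rows not called again (4.81%). The difference was 4.06 points (0.53 to 7.07). Neighbours share their source, which makes this interval too narrow. With 1 row counted per group, that of the lowest row number, the difference was 2.91 points (0.36 to 5.01). Low rows were called again more often, so this choice favours the members and cannot settle the point. Over all rows, the difference was 1.71 points (-0.78 to 3.68) at a distance of 10 kb and 3.44 points (-1.05 to 7.39) at 100 kb, where the interval included 0.

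The first of the groups lay on chromosome 3 from 134045701 to 134093599. It held row 10 at 134093151 to 134093599, row 198 at 134045701 to 134046099 and row 527 at 134082901 to 134083249, with partners at SB431542 rows 350, 1786 and 1466. Row 198 overlapped a SMAD2 region. This span of 47899 bp held 12 TEAD4 regions of DMSO cells, 17 of SB431542 cells and 7 SMAD2 regions.

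The group on chromosome 6 was the tightest, from 37094051 to 37109599. Row 16 at 37105451 to 37105999 was flanked by row 405 at 37094051 to 37094449 and row 224 at 37109301 to 37109599. Their partners were rows 982, 1068 and 1204. No SMAD2 region overlapped them, although 3 lay within the span. Here 3 of 5 TEAD4 regions of DMSO cells were members.

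The group on chromosome 16, from 71043401 to 71068399, lay further down the DMSO list. Rows 476 (71061951 to 71062299), 550 (71068051 to 71068399) and 855 (71043401 to 71043949) matched SB431542 rows 1053, 1011 and 1799. SMAD2 row 35490 overlapped the last of these, without reaching its partner. All 9 members of the 3 groups had partners in the first 2000 SB431542 rows, compared with 301 of all 688 (43.8%). Members in the 22 pairs did not share this throughout, with partners from row 453 to row 194096. The contrast rests on 9 regions and was not tested.

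**Figure D5:**
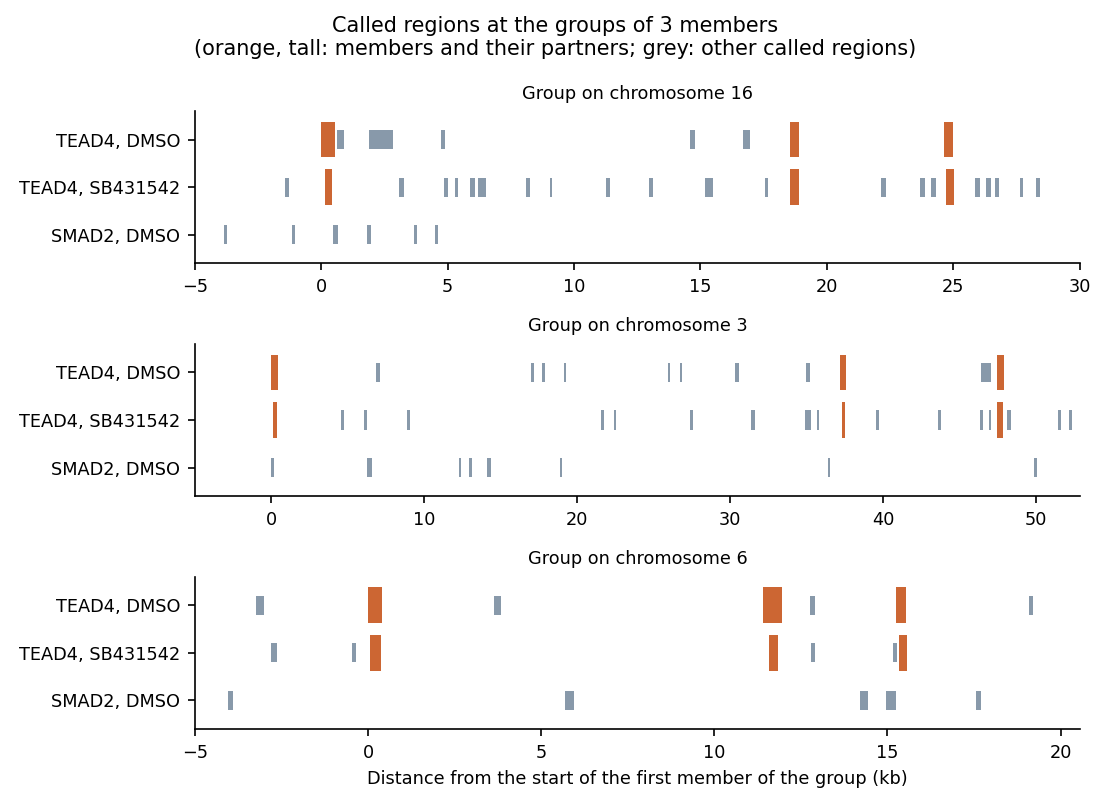
Called regions at the 3 groups of 3 members, by distance from the start of the first member (x axis, kb); rows are the TEAD4 lists of DMSO and SB431542 cells and the SMAD2 list of DMSO cells. Tall orange bars are members and their partners, and grey bars are the other called regions, which number 12, 5 and 8 with the members for TEAD4 in DMSO within the spans on chromosomes 3, 6 and 16.

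Among the pairs, the closest lay on chromosome 12 from 6485251 to 6486199 (rows 592 and 860), a span of 949 bp. A pair on chromosome 22 from 39570601 to 39572549 joined rows 15 and 147, and a pair on chromosome 8 from 128822301 to 128830749 rows 80 and 152. On chromosome 3, rows 61 and 87 lay together from 140789751 to 140800649. Row 1 itself had a neighbour, row 551, within a span of 7299 bp that began at 113566501 on chromosome 4. On chromosome X the pairs joined rows 76 and 566, rows 126 and 386, and rows 443 and 892. Pairs were thus found from the top of the list to near row 1000.

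Most members had a further TEAD4 region nearby, of whatever row. Another TEAD4 region of DMSO cells lay within 10 kb of 588 members (85.5%, 82.6 to 87.9%), beside 88.7% of all TEAD4 regions and 83.7% of the rows not called again. The share was 3.24 points lower than in all other TEAD4 regions, with an interval for members minus others of -6.08 to -0.80. Against the rows not called again it was 1.81 points higher (-2.84 to 6.94), an interval that included 0. SB431542 regions met 4.74% of the flanking windows from 1 to 5 kb of the members (3.05 to 5.81% over the 18 windows). They met 3.99% of those of the rows not called again and 3.31% over the whole list, whereas TEAD4 regions of DMSO cells met 4.76, 4.34 and 5.11%.

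Members were found on 23 chromosomes and none was on chromosome Y, which held none of the rows not called again either. Chromosome 1 held the most, 71 (10.3% of members against 7.79% of the rest of the list), followed by chromosome 2 with 53 and chromosomes 3 and 7 with 46 each. Chromosome 22 held 8. Compared with the rest of the list over 24 chromosomes, the 95% interval of the difference did not include 0 for chromosome 1 (2.53 points, 0.47 to 5.03), chromosome 4 (-2.25, -3.60 to -0.41) and chromosome 19 (0.98, 0.03 to 2.46). With the interval widened for 24 comparisons by Bonferroni's rule, all of them included 0. Against the rows not called again, no chromosome had an interval without 0. The row limit also cut a stretch ordered by chromosome name, so chromosome shares can depend on where it fell. Of the 688 members 4, and of the 312 rows not called again 3, were closer than 500 kb to an empty stretch. This means 1 Mb or more without a called region in the 3 lists.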

How the data were processed

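Chromatin immunoprecipitation sequencing of TEAD4 and SMAD2 was deposited as 3 lists of called regions. Their columns are the chromosome, first and last coordinate of a region, without a header or any other value. Coordinates refer to hg19 (per the submitters' processing notes). How reads were aligned and regions called, against which control and at what depth, is not given in the sources used here. Lists and samples were matched by antibody target and treatment, which fit 1 sample title each. The other 5 groups were not analysed here. Widths are end minus start, and printed starts are raised by 1 bp. Where a member met several regions, the one with the lowest row was its partner. Neighbour distances run from edge to edge.

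Shares carry 95% Wilson intervals and differences Newcombe intervals. The members, lists and comparisons were chosen with earlier results of these data known. Named regions are the first 10 members, the 10 smallest sums of rows, the 10 smallest SMAD2 rows (the text gives the leading ones), the extremes of width, the edges of the row limit and groups of at least 3. Alternatives were other overlap rules, row limits, distances and windows. Motif, start-site and gene comparisons needed an hg19 sequence and annotation and were not run. Overlap and interval functions were tested on simulated data. Python 3.11.15, NumPy 2.4.6, pandas 2.3.3, statsmodels 0.14.6 and matplotlib 3.10.9 were used.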

Additional observations from a re-analysis of the deposited data

How the results depend on the processing

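Shares of the first rows called again moved with the rule. An overlap of 50% of both regions or a shortened SB431542 list can only lower such shares. They were 45.4% with an overlap of 50% of both regions, 59.6% with midpoints within 100 bp, 89.0% in the first 500 rows, 49.95% in the first 2000 rows and 40.0% with only the first 5000 SB431542 rows. Without SB431542 regions beside empty stretches the share was 68.4%, and with inclusive ends 68.8%. The SMAD2 difference between members and rows not called again was -4.23 points with members defined by 50% of both regions and 0.92 points in the first 2000 rows. In 3 other alternatives it stayed negative with an interval that included 0. The comparisons with all other TEAD4 regions and with neighbours among the first 1000 rows were varied after seeing the data. The former fell to 0.97 points in 200 bp windows, 0.47 with midpoints within 100 bp and -1.05 with 50% of both regions, all with intervals that included 0. The latter was 1.71 points at 10 kb and 3.44 at 100 kb. It kept an interval above 0 in the later 500 rows, without groups of at least 3 rows and with 1 row per group. In the last of these the lowest row was kept, which favours the members. Members with another member were 2.91% within 10 kb and 10.8% within 100 kb. Partners were 249 bp wide against 399 bp. Beyond construction, the cause of these shifts was not tested. No paired analysis was possible because every group consists of 1 library, so that none could be left out. Depth is unknown, and a missing region is one not detected at that depth.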
